A study of Mus musculus with 6 samples.

Results

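The 10 genes described here are targets and feedback regulators of transforming growth factor beta (TGF-beta) and SMAD signalling: Tgfbi, Ccn1, Ccn2, Smad3, Smad7, Ski, Skil, Tgif1, Id1 and Id2. They were taken by symbol from a count table of 33276 genes, and all 10 were present and passed the filter on low counts that left 20248 genes for testing. The table held RNA-seq read counts of fibroadipogenic progenitors (FAPs), stromal cells of the muscle interstitium that can become fibroblasts or fat cells. One group was 3 samples of circulating FAPs from peripheral blood and the other was 3 samples of FAPs from muscle. All 6 came from mice after middle cerebral artery occlusion (MCAO), a stroke model that blocks a brain artery, so both groups carry the occlusion and no library from unoccluded mice was analysed here. The labels give no age, sex, background strain, time after occlusion, muscle, sorting scheme or number of mice pooled. The question is how FAPs in blood differ from FAPs resident in muscle.

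TGF-beta ligands bind a pair of receptor kinases at the cell surface, which phosphorylate SMAD2 and SMAD3; these join SMAD4 and enter the nucleus to switch on genes. Among the genes induced are brakes on the same pathway, such as SMAD7, SKI and SKIL, while BMP ligands act through SMAD1 and SMAD5, with the ID genes as their best known targets. In muscle, TGF-beta is known to keep FAPs alive and to push them towards a fibrogenic, matrix-producing state.

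Circulating libraries held 5522193 to 13813329 counts and muscle libraries 17532558 to 23424039, with 18S ribosomal RNA at 43.0% to 60.1% and 27.8% to 32.3% of counts. This 18S share sums the symbols Rn18s and Rn18s-rs5, which had the same level as each other in every library. The totals include both symbols, and whether the same reads were counted under both is not known here. The cells carried FAP genes in both groups: the summed level of 10 FAP markers was 23050 to 24010 counts per 1000000 (CPM) in circulating and 45390 to 55950 CPM in muscle libraries. Of these 10 markers 1 was lower in edgeR and 3 with DESeq2, 5 were lower and 1 higher with an unadjusted p under 0.05, and 5 were lower without overlap of the groups. The one past the threshold in edgeR was Gsn, an actin-severing protein, at 33310 ± 3785 CPM in muscle and 14589 ± 1501 CPM in circulating libraries (-1.19 ± 0.17, adjusted p = 0.0341 in edgeR and 0.0806 with DESeq2; -0.46 and 0.119 with scaling on abundant genes). Dcn, a collagen-binding proteoglycan, was at 9816 ± 1967 and 4309 ± 1130 CPM (-1.19 ± 0.25, adjusted p = 0.0962 in edgeR). The DESeq2 calls, named after values were seen, were the FAP marker Pdgfra, the proteoglycan Lum and the receptor Pdgfrb. Pdgfra was at 610 ± 210 CPM in muscle and 202 ± 16.5 CPM in circulating libraries (-1.60 ± 0.35). Lum was at 1090 ± 315 and 317 ± 65.3 CPM (-1.78 ± 0.33), and Pdgfrb at 108 ± 52.7 and 20.9 ± 4.89 CPM (-2.37 ± 0.55). The higher marker was Pi16, at 297 ± 109 CPM in muscle and 823 ± 443 CPM in circulating libraries with overlap (1.47 ± 0.47, adjusted p = 0.180 in edgeR). The markers not named overlapped as well, with log2 fold changes from -0.49 to 0.18. Of all tested genes 0.104% were lower in edgeR, 9.64% with an unadjusted p under 0.05 and 11.4% without overlap (28.8% at 20 CPM or more). DESeq2 called 7.08% of its tested genes lower and 1.34% higher. Leukocyte transcripts moved with the group. All 14 tested markers of 15 had a positive log2 fold change, with a summed level of 167 to 261 CPM in circulating against 21.7 to 26.7 CPM in muscle libraries, no marker of the list at 0 throughout a group, and none past the threshold in edgeR (9 higher with an unadjusted p under 0.05, 7 higher with DESeq2). Of all tested genes 45.5% had a negative log2 fold change, and the share higher with an unadjusted p under 0.05 was not counted. The part of both marker lists in the results below was not tested. In these bulk samples, fewer cells of a type and less RNA per cell cannot be told apart.

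The 10 genes did not behave as a block. Tgfbi, Skil, Tgif1 and Id2 were lower in each circulating library than in each muscle library, between 3.46-fold and 9.41-fold by the fitted ratio, whereas Ccn1, Ccn2, Smad7 and Id1 had fitted ratios of circulating to muscle of 0.982 to 1.05 and Ski and Smad3 lay between. None of the 10 passed an adjusted p of 0.05 over all genes in edgeR, where 0.104% of tested genes passed as lower and 0.00494% as higher; 4 of the 10 had an unadjusted p under 0.05, all lower, against 9.64% of tested genes lower. The same 4 were lower with DESeq2 (7.08% of its tested genes lower, 1.34% higher), and 3 of them, Tgfbi, Tgif1 and Id2, with limma-voom (0.444% lower) and in edgeR without the low-count filter (0.488%). Tgfbi and Id2 also passed in edgeR with RLE size factors (0.207% of genes lower), with TMMwsp scaling (0.153%) and with library size only (0.138%). Groups without overlap on the lower side were found for 4 of the 10, against 11.4% of all tested genes and 28.8% of those at 20 CPM or more.

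**Figure D1:**
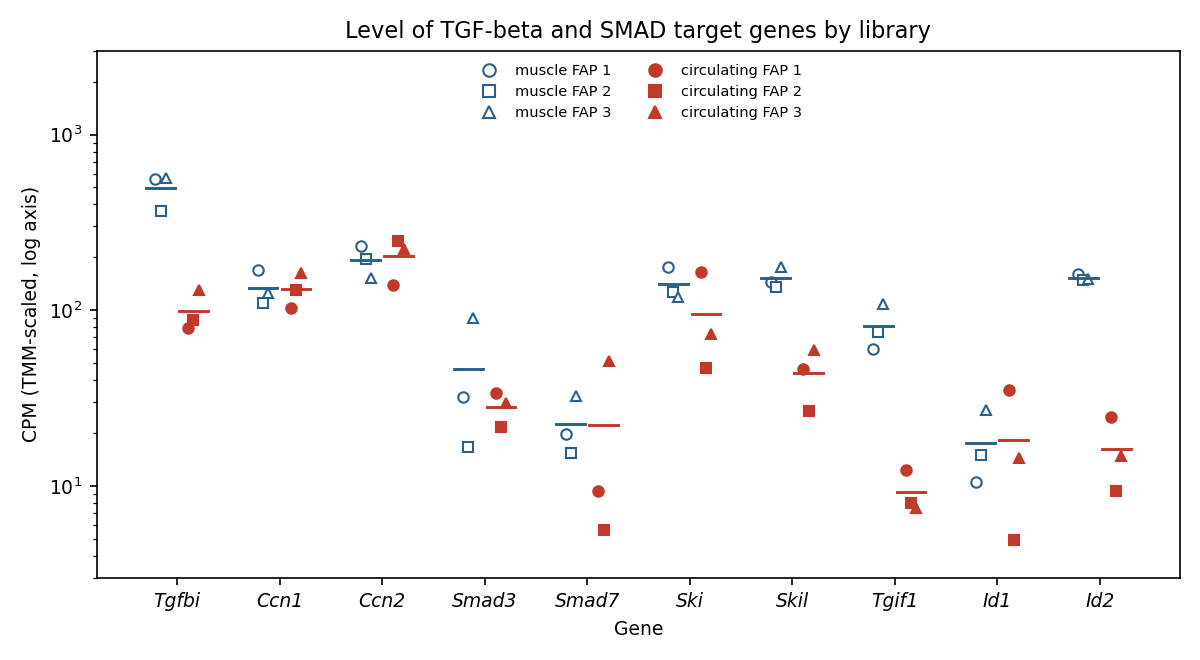
Level of each of the 10 genes in CPM on a log axis, with 1 point for each of the 3 muscle (open) and 3 circulating (filled) libraries and a line at the group mean. Circulating points lie below all muscle points for Tgfbi, Skil, Tgif1 and Id2, and the groups overlap for the other 6 genes.

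Tgfbi encodes a secreted matrix protein that binds collagens and integrins and is named for its induction by TGF-beta. It stood at 561, 368 and 568 CPM in muscle replicates 1, 2 and 3 and at 78.8, 88.4 and 131 CPM in circulating replicates 1, 2 and 3. The highest circulating library was thus below the lowest muscle library, and the group means were 499 ± 114 and 99.4 ± 27.8 CPM (SD, n = 3). The log2 fold change, circulating minus muscle, was -2.33 ± 0.38 (SE; 95% interval -3.17 to -1.49), with an adjusted p of 0.0606 in edgeR. By unadjusted p Tgfbi ranked 30 of 20248, just beyond the 22 genes that passed. DESeq2 gave an adjusted p of 0.000829.

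Ccn1 and Ccn2 encode matricellular proteins of the CCN family that bind integrins and heparan sulphate; both respond to TGF-beta and also to the mechanically regulated factors YAP and TEAD. Ccn2 was at 232, 196 and 153 CPM in muscle replicates 1, 2 and 3 and at 140, 249 and 223 CPM in circulating replicates 1, 2 and 3. Ccn1 was at 169, 110 and 125 CPM in muscle and at 103, 130 and 162 CPM in circulating libraries. For both genes the groups overlapped and neither group was the higher in every library. The log2 fold change was 0.08 ± 0.39 for Ccn2 (95% interval -0.78 to 0.93, adjusted p = 0.920 in edgeR) and -0.03 ± 0.40 for Ccn1 (-0.92 to 0.87, adjusted p = 0.975). These intervals leave room for a change of somewhat under 1 log2 unit either way. With scaling on abundant genes the estimates were 0.82 and 0.72, and neither passed (adjusted p = 0.187 and 0.239). In the annotation at hand (GENCODE M21) 23.2% of the exon bases of Ccn2 lie opposite the antisense transcript Gm15270, and the strand setting of the counting is not given in the sources used here, so whether reads of Gm15270 entered the count of Ccn2 is not known here. No other of the 10 genes had an exon overlapping another gene.

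The 250 bases before the start site are shown for Tgfbi and Id2, which had the lowest circulating levels relative to muscle among targets with a sequence at hand and a single listed start, and for Ccn1, which did not. They come from RefSeq on build GRCm38.p6, whereas the counts were made on GRCm39; each runs 5′ to 3′ on the gene's strand, and capitals mark the motif matches described next.
Tgfbi, chr13:56609336-56609585, plus strand: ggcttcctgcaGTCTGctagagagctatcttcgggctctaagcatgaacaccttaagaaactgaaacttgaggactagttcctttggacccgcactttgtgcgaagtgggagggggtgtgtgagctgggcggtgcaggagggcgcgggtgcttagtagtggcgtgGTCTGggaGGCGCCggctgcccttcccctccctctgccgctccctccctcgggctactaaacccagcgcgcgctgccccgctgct
Id2, chr12:25096093-25096342, minus strand: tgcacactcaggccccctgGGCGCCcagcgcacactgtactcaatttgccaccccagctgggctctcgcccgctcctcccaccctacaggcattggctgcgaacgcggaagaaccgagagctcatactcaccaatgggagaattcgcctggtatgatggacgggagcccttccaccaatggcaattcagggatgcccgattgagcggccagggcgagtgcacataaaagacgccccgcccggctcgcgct
Ccn1, chr3:145649986-145650235, minus strand: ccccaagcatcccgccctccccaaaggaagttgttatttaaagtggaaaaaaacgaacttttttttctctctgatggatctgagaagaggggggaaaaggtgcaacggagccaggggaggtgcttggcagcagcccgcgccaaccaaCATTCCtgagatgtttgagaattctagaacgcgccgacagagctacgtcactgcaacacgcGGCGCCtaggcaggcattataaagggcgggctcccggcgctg
A set of 5 motifs was searched on both strands in such windows, which were at hand for 6 of the 10 genes (Ccn1, Ski, Smad3, Id2, Tgfbi and Tgif1, the last with 5 start sites). The SMAD element CAGAC occurred in Tgfbi, at 239 to 235 and 85 to 81 bases before the start, and in Tgif1, and in 42.2% of all 32851 promoter windows. The GC-rich element GGCGCC, bound by SMAD1 and SMAD5, occurred in Tgfbi (77 to 72 bases before the start), Id2 (231 to 226), Ccn1 (42 to 37) and Ski, and in 9.59% of all windows. Windows of these 4 genes were 54.8% to 87.6% G and C, above the median of 52.4%. The TEAD element GGAATG occurred in Ccn1 alone among the 6, as CATTCC at 103 to 98 bases before the start, and in 12.6% of all windows. Neither the palindromic SMAD element GTCTAGAC nor the AP-1 element TGACTCA occurred in the 6 genes (0.167% and 4.46% of all windows). The shares are per window, and Tgif1 had 5 windows. Counted by window, CAGAC stood in 4 of the 10 windows of the 6 genes, GGCGCC in 4 and GGAATG in 1. No matches in the 3 printed windows overlap. The genes with and without lower circulating levels were not told apart by GGCGCC, which stood in Tgfbi and Id2 as well as in Ccn1.

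Smad3 encodes the receptor-activated SMAD that carries the TGF-beta signal to the nucleus, and Smad7 the inhibitory SMAD that blocks the receptor and recruits ubiquitin ligases to it. Smad3 was at 32.0, 16.7 and 90.2 CPM in muscle replicates 1, 2 and 3 and at 33.6, 21.7 and 29.6 CPM in circulating replicates 1, 2 and 3. The muscle mean of 46.3 ± 38.8 CPM rested on muscle replicate 3, and the 3 circulating libraries lay within the muscle range. Its log2 fold change was -0.71 ± 0.69 (95% interval -2.23 to 0.82, adjusted p = 0.564 in edgeR) and 0.16 without muscle replicate 3. Smad7 was at 19.7, 15.4 and 32.6 CPM in muscle and at 9.41, 5.59 and 51.5 CPM in circulating libraries. Here circulating replicate 3 stood apart, 9.21 times above the lowest circulating library, and the other circulating libraries were below all muscle libraries. Its log2 fold change of -0.03 ± 0.85 (-1.92 to 1.87, adjusted p = 0.990) became -1.70 without circulating replicate 3, still short of the threshold, and 0.36 without circulating replicate 2. The sign of both genes thus turned with the library left out.

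Ski and Skil encode related proteins that bind SMAD complexes on DNA and recruit corepressors, and Tgif1 encodes a homeodomain corepressor that competes for SMAD2. Skil was at 145, 136 and 177 CPM in muscle replicates 1, 2 and 3 and at 46.3, 26.6 and 59.3 CPM in circulating replicates 1, 2 and 3. Each circulating library was below each muscle library. The log2 fold change was -1.79 ± 0.47 (95% interval -2.83 to -0.75, adjusted p = 0.147 in edgeR and 0.0166 with DESeq2). Ski was at 177, 128 and 118 CPM in muscle and at 166, 46.8 and 73.4 CPM in circulating libraries. Circulating replicate 1 alone lay within the muscle range. With it the log2 fold change of Ski was -0.57 ± 0.52 (-1.72 to 0.59, adjusted p = 0.542 in edgeR), and without it -1.30.

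Tgif1 had the lowest fold change of the 10 genes but for Id2. It was at 60.2, 75.1 and 109 CPM in muscle replicates 1, 2 and 3 and at 12.3, 7.99 and 7.47 CPM in circulating replicates 1, 2 and 3, from 168, 60 and 68 reads. The groups did not overlap. The log2 fold change was -3.14 ± 0.58 (95% interval -4.42 to -1.86, adjusted p = 0.0819 in edgeR, 2.59e-06 with DESeq2 and 0.0366 with limma-voom). Circulating libraries held more reads over genes expected to be silent, at 0.812 to 1.21 reads per kilobase of exon per 1000000 counts without 18S, against 0.273 to 0.431 in muscle. Tgif1 stood 2.84 to 4.67 times above that level in circulating and 41.6 to 91.7 times in muscle libraries. On that scale the log2 ratio of group means was -2.56, and -3.02 with that level subtracted. Smad7 came nearer to that background, at 4.46, 2.47 and 28.2 times its level in circulating replicates 1, 2 and 3. The lowest circulating libraries of Skil and Id2 were at 5.49 and 7.64 times.

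Id1 and Id2 encode helix-loop-helix proteins without a DNA-binding region, which hold bHLH transcription factors inactive; BMP signalling induces both, and TGF-beta can induce or repress them depending on the cell. Id2 was at 162, 149 and 150 CPM in muscle replicates 1, 2 and 3, the tightest group of any of the 10 genes, and at 24.8, 9.32 and 14.7 CPM in circulating replicates 1, 2 and 3. The highest circulating library was several-fold below the lowest muscle library. With a log2 fold change of -3.23 ± 0.53 (95% interval -4.41 to -2.06), the lowest of the 10, Id2 missed the threshold in edgeR (adjusted p = 0.0613) and passed with DESeq2 (2.09e-06) and limma-voom (0.0323). Without circulating replicate 1 it passed in edgeR (adjusted p = 0.0283, where 0.286% of genes passed as lower). Its fold change ranked 159 from the lowest of 20248, and that of Tgif1 ranked 186.

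Id1 did not share this pattern. It was at 10.5, 14.9 and 27.1 CPM in muscle replicates 1, 2 and 3 and at 35.2, 4.92 and 14.5 CPM in circulating replicates 1, 2 and 3, the last from 482, 37 and 132 reads. The 2 extremes of the 6 libraries were both circulating. The log2 fold change was 0.06 ± 0.80 (95% interval -1.71 to 1.82, adjusted p = 0.973 in edgeR) and -0.91 without circulating replicate 1. Id1 is abundant in endothelium; the summed level of 10 endothelial markers was 72.7 to 116 CPM in circulating and 92.1 to 145 CPM in muscle libraries, and none passed in edgeR or DESeq2 or had an unadjusted p under 0.05 (0 genes). The most abundant were Tek, at 56.8 ± 26.7 CPM in muscle against 59.6 ± 26.3 CPM in circulating libraries, and Kdr, at 23.6 ± 27.2 against 5.63 ± 2.68 CPM. Of these 10 markers 6 had a negative and 4 a positive log2 fold change, against 45.5% of all tested genes negative. Only 1 of the markers was free of overlap, on the higher side, a share not counted over all genes. The part of endothelial cells in the level of Id1 was not tested.

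Ratios of related genes within a library do not depend on how libraries are scaled. The 4 pairs were chosen after values were seen, and 3 libraries against 3 cannot give an exact permutation p below 0.1, so the ratios are descriptions and no test of them could pass 0.05. There were 15.4, 9.99 and 5.54 reads of Id2 for each read of Id1 in muscle replicates 1, 2 and 3, and 0.705, 1.89 and 1.02 in circulating replicates 1, 2 and 3. The groups did not overlap, and the mean log2 ratio was 3.24 ± 0.74 in muscle and 0.15 ± 0.72 in circulating libraries (SD, n = 3). Skil relative to Ski gave 0.815, 1.07 and 1.50 in muscle and 0.279, 0.568 and 0.808 in circulating libraries, again without overlap but by a margin of 0.815 against 0.808. The pair Ccn2 to Ccn1 lay between 1.22 and 1.91 in all 6 libraries. Smad7 relative to Smad3 ranged from 0.258 to 1.74 in circulating libraries, with the 0.361 to 0.921 of muscle inside that range. The difference in mean log2 ratio, circulating minus muscle, was 0.08 for the CCN pair and -3.10 for the ID pair.

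**Figure D2:**
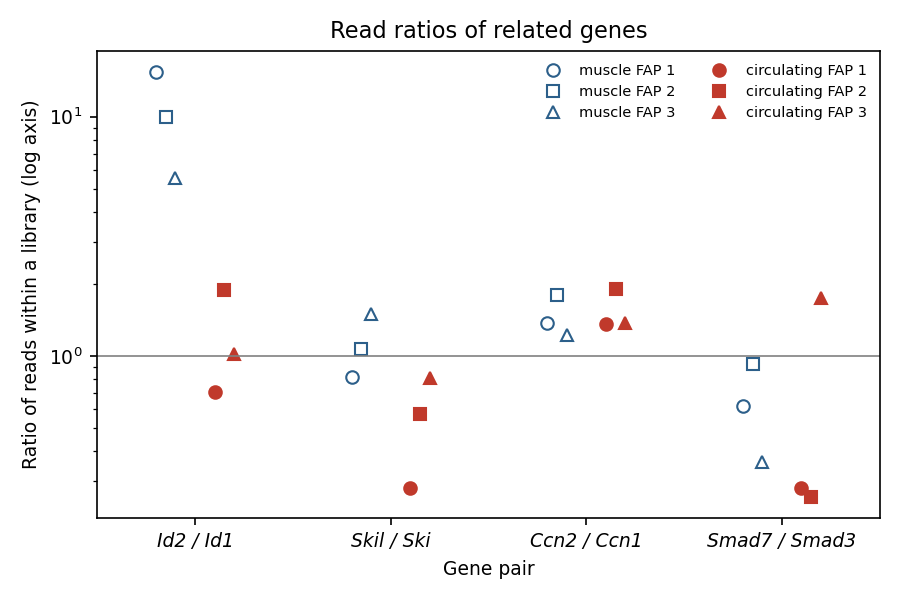
Ratio of reads of related genes within each library, on a log axis, for 3 muscle (open) and 3 circulating (filled) libraries. Id2 to Id1 is 5.54 or more in muscle and 1.89 or less in circulating libraries, and Ccn2 to Ccn1 is between 1.22 and 1.91 in both.

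The levels of the genes were set in order on a scale that allows genes to be compared, reads per kilobase of exon per 1000000 counts without 18S. In muscle Tgfbi was highest at 178 ± 23.4, above Ccn2 (92.9 ± 20.8), Ccn1 (90.3 ± 14.4) and Id2 (86.3 ± 8.08), which lay within each other's spread. Ski (34.6 ± 6.67) came next, Skil (21.5 ± 2.30), Id1 (20.6 ± 9.29) and Tgif1 (19.8 ± 5.76) could not be ordered, and Smad3 (11.0 ± 8.73) and Smad7 (6.71 ± 2.23) were lowest. In circulating libraries Ccn2 (154 ± 63.8) and Ccn1 (139 ± 44.4) led without differing beyond their spread, followed by Tgfbi (55.9 ± 19.2), Ski (33.5 ± 16.3) and Id1 (30.0 ± 21.4), which overlapped and could not be ordered. Id2 stood at 13.3 ± 4.24, Smad3 at 10.5 ± 1.02, Smad7 at 10.4 ± 12.2 and Skil at 9.37 ± 3.39, all overlapping, and Tgif1 was last at 3.36 ± 0.471. Tgfbi was thus above Ccn2 and Ccn1 in each muscle library and below both in each circulating library.

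Spread within a group was itself uneven. Among circulating libraries the SD exceeded 50% of the mean for 3 genes, Ski, Smad7 and Id1, and in muscle for Smad3 alone. Ski and Id1 were both highest in circulating replicate 1 and lowest in circulating replicate 2, the library with the fewest counts, while Smad7 was highest in circulating replicate 3. Of the 10 genes the median log2 fold change was -0.64, against 0.15 for all 20248 tested genes and -0.65 for the 4736 at 20 CPM or more. A negative value was found for 8 of the 10, against 45.5% of all genes and 78.3% of those abundant genes. The list as a whole thus sat where genes of its abundance sat. With scaling on abundant genes the median over all tested genes was 0.85 and that of the 10 was 0.06, with 4 of the 10 negative (26.3% of all genes): Tgfbi at -1.58, Skil at -1.09, Tgif1 at -2.45 and Id2 at -2.58. None of these passed with that scaling (adjusted p = 0.0882, 0.140, 0.0882 and 0.0882 in edgeR), which called 0.0198% of genes lower.

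**Figure D3:**
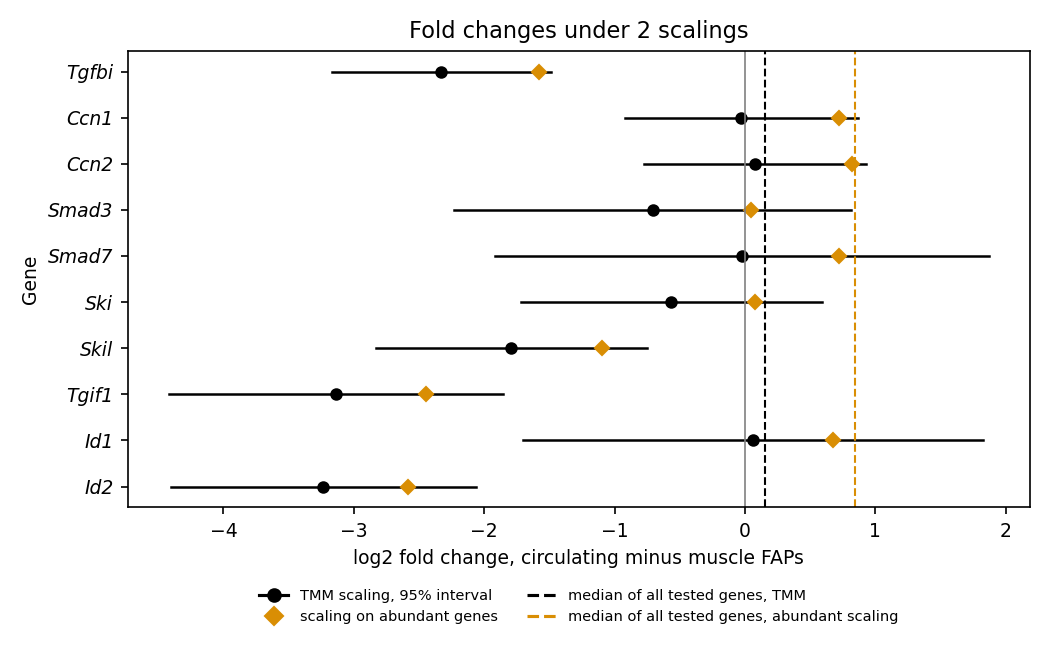
Log2 fold change of each gene, circulating minus muscle, with TMM scaling (black, bars are 95% intervals) and with scaling on abundant genes (orange), and dashed lines at the median of all tested genes under each. The intervals of Tgfbi, Skil, Tgif1 and Id2 end below 0, and the orange points of these 4 genes stay negative while those of the other 6 do not.

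Upstream of the targets, genes of the ligands and of the latent complex that stores them had 1 of 13 lower and none higher over all genes in edgeR (4 lower with DESeq2, which were Thbs1, Ltbp4 and, named after values were seen, Tgfb2 and Itgav), with a median log2 fold change of -0.28. The lower gene was Thbs1, a matricellular activator of the latent complex, at 463, 473 and 493 CPM in muscle replicates 1, 2 and 3 and 56.8, 104 and 55.7 CPM in circulating replicates 1, 2 and 3 (-2.72 ± 0.39, adjusted p = 0.0349). Ltbp4, which tethers latent TGF-beta to the matrix, was at 582 ± 65.1 CPM in muscle and 179 ± 78.8 CPM in circulating libraries (-1.70 ± 0.39, adjusted p = 0.125 in edgeR, 0.0231 with DESeq2). Of 12 receptors for TGF-beta and BMP 3 were lower with DESeq2 and none in edgeR (5 with an unadjusted p under 0.05, all lower), with 10 negative values and a median of -1.05. The DESeq2 calls among the receptors, named after values were seen, were Tgfbr1, Acvrl1 and Acvr2a. Without overlap 5 receptors were lower, against 11.4% of all tested genes and 28.8% of those at 20 CPM or more. Of all tested genes 0.104% were lower in edgeR, 9.64% were lower with an unadjusted p under 0.05 and 45.5% were negative. DESeq2 called 7.08% of its tested genes lower. Among genes at 20 CPM or more 78.3% were negative. Tgfbr2, the receptor that binds the ligand first, was at 278 ± 51.1 CPM in muscle and 119 ± 63.0 CPM in circulating libraries without overlap (-1.22 ± 0.45, adjusted p = 0.207 in edgeR). The coreceptor Tgfbr3 was at 415 ± 84.3 and 298 ± 70.0 CPM (-0.48 ± 0.34, adjusted p = 0.430).

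Among the 6 remaining SMAD genes none passed in edgeR or DESeq2 (an unadjusted p under 0.05 in edgeR for Smad5, lower, and Smad9, higher), with a median of -0.81. Of all tested genes 9.64% were lower at that unadjusted p, and DESeq2 called 7.08% of its tested genes lower. The BMP-activated Smad1 was at 38.9 ± 18.3 CPM in muscle and 43.2 ± 27.2 CPM in circulating libraries (0.15 ± 0.66, adjusted p = 0.904 in edgeR) and Smad5 at 77.6 ± 34.3 and 25.9 ± 18.9 CPM (-1.58 ± 0.66, adjusted p = 0.234). Smad9, a BMP-activated SMAD named after values were seen, was at 0.954 ± 0.210 and 2.75 ± 1.17 CPM (1.50 ± 0.55, adjusted p = 0.206 in edgeR). Of 13 further regulators of SMAD signalling 1 was lower with DESeq2 and none in edgeR (2 with an unadjusted p under 0.05, both lower), with a median of -0.20. Named after values were seen, these were Ldlrad4, which the DESeq2 call fell on, and the ubiquitin ligase Smurf2, at 24.2 ± 12.3 and 74.1 ± 14.0 CPM in muscle and 4.46 ± 1.77 and 29.2 ± 13.0 CPM in circulating libraries. Pmepa1, a TGF-beta-induced inhibitor that sequesters receptor-activated SMADs, was at 110 ± 12.5 CPM in muscle and 92.4 ± 12.0 CPM in circulating libraries (-0.25 ± 0.41, adjusted p = 0.741). Fkbp1a, which binds the resting type I receptor, was at 224 ± 72.6 and 195 ± 51.3 CPM (-0.20 ± 0.40, adjusted p = 0.788 in edgeR).

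Downstream, 31 of 32 further genes known to be induced by TGF-beta were tested. None passed in edgeR (10 had an unadjusted p under 0.05, all lower), 8 were lower with DESeq2 and none higher, 24 had a negative value and the median was -0.75. Among all tested genes at 20 CPM or more the median was -0.65 and 78.3% were negative. Over all tested genes 9.64% were lower with an unadjusted p under 0.05, and DESeq2 called 7.08% of its tested genes lower. The fibrillar collagen genes Col3a1 (9644 ± 500 CPM in muscle, 3435 ± 1016 CPM in circulating libraries; -1.49 ± 0.24, adjusted p = 0.0606) and Col1a2 (4745 ± 266 and 2289 ± 344 CPM; -1.05 ± 0.21, adjusted p = 0.0909) were the most abundant, and neither passed in edgeR. Of 8 further genes responsive to BMP, 6 were tested, none passed in edgeR (Id3 and Id4 with an unadjusted p under 0.05, both lower) and 1 was lower with DESeq2 (Id4, named after values were seen), with a median of -1.24. Id3, a further member of the ID family, was at 352, 351 and 508 CPM in muscle replicates 1, 2 and 3 and 275, 134 and 70.9 CPM in circulating replicates 1, 2 and 3. Its groups did not overlap (-1.34 ± 0.49, adjusted p = 0.204 in edgeR). Msx1, a homeobox gene, was at 34.4 ± 12.2 and 21.6 ± 11.9 CPM (-0.67 ± 0.64, adjusted p = 0.556).

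The other 4 CCN genes gave no call in edgeR, at an unadjusted p under 0.05 (0 genes) or with DESeq2, with a median of -0.21. Ccn3 was at 190 ± 53.3 CPM in muscle and 103 ± 51.9 CPM in circulating libraries (-0.88 ± 0.47, adjusted p = 0.320 in edgeR), and Ccn5 at 36.7 ± 24.5 and 38.0 ± 11.9 CPM (0.05 ± 0.63, adjusted p = 0.971). Of 20 other YAP and TEAD target genes 1 was lower in edgeR and with DESeq2, none was higher in either, and the median was -0.31. At an unadjusted p under 0.05, 2 were lower and 1 higher, against 9.64% of all tested genes lower. Without overlap 3 were lower and 1 higher, against 11.4% of all tested genes lower. The gene lower in edgeR was F3, the tissue factor that starts coagulation, at 165 ± 26.5 CPM in muscle and 15.5 ± 7.11 CPM in circulating libraries (-3.41 ± 0.52, adjusted p = 0.0496 in edgeR). The higher gene was Ankrd1, named after values were seen, at 0.782 ± 0.415 and 3.46 ± 2.46 CPM without overlap (2.13 ± 0.70, adjusted p = 0.184 in edgeR). Axl, a receptor tyrosine kinase, was at 409 ± 106 and 443 ± 117 CPM (0.11 ± 0.35, adjusted p = 0.863), and Ccdc80, a secreted matrix protein, at 368 ± 51.6 and 292 ± 213 CPM (-0.33 ± 0.48, adjusted p = 0.698).

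Handling and dissociation of cells can induce immediate early genes, and several of the 10 genes can respond to the same stimuli. Over 27 such genes the summed level was 7995 to 8140 CPM in circulating and 13080 to 16090 CPM in muscle libraries, with none at 0 throughout a group. Of 26 tested, 1 was lower in edgeR (Fosb, an AP-1 subunit, -2.10 ± 0.29, adjusted p = 0.0341) and 3 with DESeq2 (Fosb and, named after values were seen, Nr4a1 and Btg2), and the median was -0.76. In this list 14 were lower with an unadjusted p under 0.05, against 9.64% of all tested genes, and 16 were lower without overlap, against 11.4% of all tested genes and 28.8% of those at 20 CPM or more. The most abundant, Fos and Egr1, were at 2408 ± 322 and 2081 ± 132 CPM in muscle and 1073 ± 18.4 and 1252 ± 216 CPM in circulating libraries (adjusted p = 0.0909 and 0.182 in edgeR). Their part in the values of Tgfbi, Skil, Tgif1 and Id2 was not tested.

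**Figure D4:**
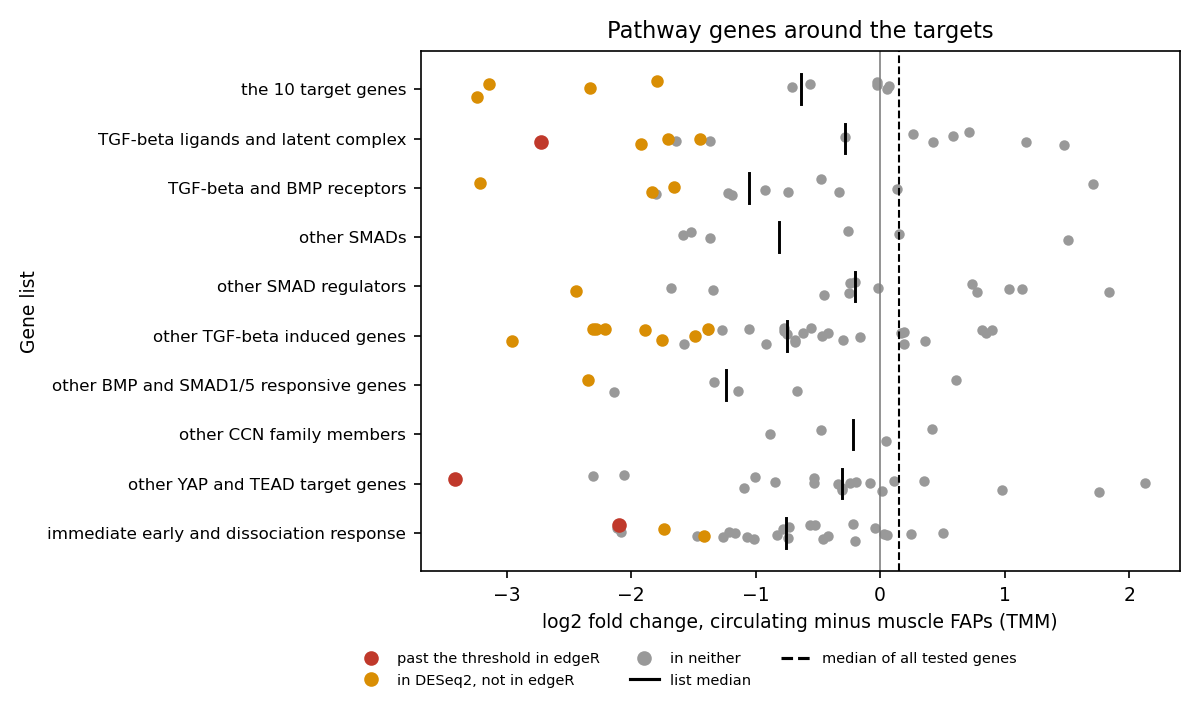
Log2 fold change (TMM scaling) of each tested gene of the 10 targets and of 9 related lists, with the list median as a black bar and the median of all tested genes dashed. Red points passed in edgeR (Thbs1, F3 and Fosb), orange points with DESeq2 only, and grey points with neither.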

How the data were processed

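RNA-seq read counts were analysed for 3 circulating and 3 muscle FAP samples. Per the labels' protocols, RLT plus buffer served for RNA extraction and a TruePrep kit for the libraries. The submitters' processing notes name Trim Galore, STAR, featureCounts and the build GRCm39. The authors deposited raw counts per gene symbol; versions, options, annotation and strand setting are not given in the sources used here. Nothing in the labels says whether the samples of a group are separate mice, so p-values measure only the spread between these samples, which can be technical.

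Counts were tested with edgeR 4.0.16 (R 4.3.3): TMM scaling, filterByExpr, robust quasi-likelihood F test, Benjamini-Hochberg adjustment over 20248 genes, threshold 0.05. The standard error is the coefficient over the square root of F. DESeq2 1.42.0 and limma-voom (limma 3.58.1) ran on the same filtered genes. Steps were tested on simulated data, with changes placed in genes at 20 CPM or more. The edgeR fit recovered 0% of changes of 2-fold, 8% of 4-fold, 54% of 8-fold and 82% of 16-fold. A gene not called in edgeR can therefore still differ between the groups. Levels are CPM of the TMM-scaled library size, mean ± SD. Exon lengths and overlaps came from GENCODE M21 (GRCm38) by symbol, with a length for 92.8% of symbols. The background is the median over 402 vomeronasal, taste and trace amine receptor genes. Scaling on abundant genes used TMM factors from genes at 20 CPM or more.

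The 10 genes and the 16 other lists were chosen with earlier results of these data known. Named genes were the 10, each list's genes past the threshold and its 2 most abundant; the gene pairs, Gm15270, Myh11 and genes called by DESeq2 or unadjusted p alone were added after values were seen. Values of the platelet, red cell, mural and muscle marker lists stand in the closing section.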

Additional observations from a re-analysis of the deposited data

How the results depend on the processing

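Tgfbi, Skil, Tgif1 and Id2 were lower in circulating FAPs in each of the 19 other settings, from -2.69 to -1.58, -2.18 to -1.09, -3.46 to -2.45 and -3.74 to -2.58, with adjusted p from 0.000829 to 0.243, 0.0166 to 0.313, 2.59e-06 to 0.266 and 2.09e-06 to 0.225. The count of the 10 genes past the threshold was 0, and 2 (Tgfbi and Id2) with RLE size factors, TMMwsp or library size only, 3 without the low-count filter or with limma-voom (Tgif1 as well), 4 with DESeq2 and 0 to 1 with each library left out (Id2 without circulating replicate 1). Over all genes the count of 22 became 43 with RLE, 2 with upper quartile scaling, 7 with scaling on abundant genes, 160 without the filter, 92 with limma-voom, 1282 with DESeq2 and 0 to 65 with a library left out; circulating replicate 1 gave the 65, muscle replicate 3 the 0 and each of the other 4 libraries 1. The median of the 10 genes was 0.051 with upper quartile scaling, 0.061 with scaling on abundant genes and -1.28 to -0.43 with a library left out, lowest without circulating replicate 3. The cause was not tested.

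The sign of the other 6 genes turned. With upper quartile scaling Ski was 0.062, Smad7 0.70, Smad3 0.040 and Ccn1 0.68; with scaling on abundant genes they were 0.074, 0.72, 0.048 and 0.72. Ccn1 was 0.15 with library size only, and on the scale per kilobase without 18S (chosen after seeing the data) Ccn1 was 0.63 and Smad7 0.63, which became 0.62 and 0.56 with background reads subtracted as well. Ccn2 was -0.016 with RLE or DESeq2 and -0.14 without the filter. Id1 was -0.072 with RLE, -0.071 with DESeq2, -0.0032 with TMMwsp, -0.0058 without 18S, -0.18 without the filter and -0.26 with limma-voom. With a library left out the ranges were -1.70 to 0.36 for Smad7, -1.16 to 0.16 for Smad3, -0.31 to 0.12 for Ccn1, -0.17 to 0.22 for Ccn2 and -0.91 to 0.47 for Id1.

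With the replicate number as a block, 1 gene passed, none of the 10, and Id1 was -0.31. Deviations from the group mean correlated at only 0.0081, 0.041 and 0.0058 between same-numbered samples. Between samples of unlike number the correlations were -0.052 to 0.041. Not every sample correlated best with its own number, so the numbers were not taken to pair the samples. Depth limits Tgif1, Smad7 and Id1 most, with as few as 37 reads in a circulating library.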

Other observations

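Other cell types than leukocytes were followed by marker lists. Over 7 mural cell markers the summed level was 33.3 to 67.4 CPM in circulating and 87.4 to 189 CPM in muscle libraries; 6 of 7 had a negative log2 fold change, none passed in edgeR (an unadjusted p under 0.05 for Rgs5, lower, and Myh11, higher) and Rgs5, a pericyte marker, was lower with DESeq2 (5.20 ± 0.478 against 41.5 ± 27.7 CPM). Of all tested genes 45.5% were negative (78.3% of those at 20 CPM or more) and 9.64% were lower at that unadjusted p. DESeq2 called 7.08% of its tested genes lower. The level of Cspg4 was 15.5 ± 11.4 CPM in circulating against 38.1 ± 0.816 CPM in muscle libraries, and that of Myh11, a smooth muscle myosin named after values were seen, 13.2 ± 8.51 against 3.66 ± 1.77 CPM. Platelet markers summed to 21.7 to 38.3 and 27.4 to 35.1 CPM, red cell markers to 130 to 301 and 71.9 to 373 CPM, and muscle fibre and satellite cell markers to 48.2 to 108 and 60.8 to 105 CPM, with Myod1 at 0 in all muscle libraries. Of the most abundant of these, the platelet gene Itga2b had 21.6 ± 13.7 CPM in circulating against 25.4 ± 2.62 CPM in muscle libraries, and Pf4 had 8.47 ± 12.9 against 1.90 ± 1.65 CPM. The globin genes Hbb-bs and Hba-a1 had 118 ± 45.9 and 42.3 ± 30.9 CPM in circulating against 106 ± 74.6 and 41.1 ± 34.1 CPM in muscle libraries. The muscle fibre genes Tnnt3 and Myh4 had 24.7 ± 18.5 and 19.3 ± 1.28 CPM in circulating against 37.3 ± 10.9 and 12.1 ± 8.33 CPM in muscle libraries. The groups overlapped for all 6 of these genes. No gene of the platelet, red cell and muscle lists passed in edgeR. Those with an unadjusted p under 0.05, named after values were seen, were Gp9, lower, and Alas2 and Pax7, higher, each without overlap. Of all tested genes 11.4% were lower without overlap. The shares of all genes higher at that unadjusted p or higher without overlap were not counted. The platelet gene Gp9 had 0.235 ± 0.221 CPM in circulating against 3.04 ± 0.791 CPM in muscle libraries (adjusted p = 0.00142 with DESeq2). The red cell gene Alas2 had 2.14 ± 0.517 against 0.644 ± 0.307 CPM, and Pax7 2.48 ± 0.915 against 0.913 ± 0.275 CPM. Within the circulating libraries the leukocyte genes differed as well: Laptm5 was at 107, 29.3 and 7.80 CPM and Cd14 at 3.36, 42.7 and 43.6 CPM in replicates 1, 2 and 3.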
